A study of Schizosaccharomyces pombe with 12 samples.

Results

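The genes described here encode 10 subunits of SAGA, a large nuclear complex that acetylates histone H3 and carries other activities that assist transcription. They were chosen by name, as gcn5, ngg1, ada2, sgf29, ubp8, sgf73, spt7, spt20, spt8 and tra1, because the complex includes an H3 acetyltransferase that can acetylate lysine H3K36. All 10 were present among the 7013 genes counted in each library, and all 10 passed the filter on low counts, which left 6602 genes in the tests. RNA came from the fission yeast Schizosaccharomyces pombe, in 4 groups of 3 libraries. Cells of the first group carried histone H3 with arginine in place of glycine (H3 G34R mutation, written G34R), and those of the second carried valine at that position (H3 G34V mutation, written G34V). The third group is H3 WT Set2D mutant in the labels, taken to mean that set2, the gene of the H3K36 methyltransferase, was deleted (set2Δ). The reference strain carried H3 WT, and its label names no further mutation (WT). All cultures grew overnight in rich YES medium at 25 °C, with no further treatment, and 2 µg of total RNA was depleted of ribosomal RNA for each library. The labels name neither the other H3 genes of these strains nor the clones or cultures used, so the p-values take in only library-to-library spread, which may be technical.

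SAGA is built from modules that act on chromatin in different ways. In the acetyltransferase module, Gcn5 transfers acetyl groups to the H3 tail together with Ada2, Ngg1 (also called Ada3) and Sgf29. In the deubiquitinase module, Ubp8 removes ubiquitin from histone H2B, and Sgf73 holds that module to the rest. Spt7 and Spt20 belong to the structural core, Spt8 contacts the TATA-binding protein, and the very large pseudokinase Tra1 contacts transcriptional activators. In fission yeast, Gcn5 and Spt8 are known for opposing roles in the switch from growth to sexual differentiation. Acetylation by Gcn5 and methylation by Set2 can fall on the same lysine of H3, and a lysine carries only 1 of these marks at a time.

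Counts assigned to genes ran from 65797517 to 228726069 per library, and the 10 genes had between 2461 and 107176 counts each in a library. The labels held at the deleted gene: set2 stood at 3.92 CPM (counts per 1000000 assigned counts, after scaling between libraries) in set2Δ, against 128 CPM in WT, and at 110 CPM in G34R and 130 CPM in G34V. The H3 gene hht2 stood at 696, 661 and 677 CPM in G34R, G34V and set2Δ, against 777 CPM in WT. All nonzero counts of set2Δ replicate 3 were even numbers (100%, against 48.4% to 50.6% in the other libraries), and results are also given without that library where this changes a call. The counts of SAGA genes called in set2Δ against WT were the same without it. For the 10 SAGA genes the coefficient of variation within a group was 0.267% to 5.37%. Its median of 2.10% lay beside a median of 2.12% over the 4030 genes with a mean of 30 to 600 CPM.

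Transcripts of the catalytic subunit gene gcn5, of its partners ngg1 and sgf29, and of tra1 were higher in each of the 3 mutants than in WT, by 6.77% to 11.9%. All changes of the 10 genes were small, with log2 fold changes between −0.22 and 0.16 over the 3 comparisons with WT. In G34R 5 of the 10 genes were higher, 1 was lower and 4 were not called by edgeR's quasi-likelihood test at an adjusted p of 0.05, where 26.8% of all tested genes were higher and 26.6% were lower. In G34V 5 were higher and 0 were lower, where 25.1% and 25.0% of all tested genes were. At an unadjusted p under 0.05, and by DESeq2 or limma, the count of lower genes in G34V was also 0. In set2Δ 5 were higher and 2 were lower, where 34.5% and 35.6% of all tested genes were. The median log2 fold change of the 10 genes was 0.078 in G34R, 0.053 in G34V and 0.052 in set2Δ, beside −0.0022, −0.0060 and −0.0057 over all tested genes. The median size of a change, in either direction, was 0.085, 0.072 and 0.12 for the SAGA genes, beside 0.11, 0.098 and 0.17 over all tested genes. Libraries of 6 SAGA genes lay entirely above and of 1 entirely below WT in G34R (31.5% and 30.9% of all tested genes), of 5 above and 0 below in G34V (28.7% and 29.2%), and of 5 above and 2 below in set2Δ (35.5% and 36.4%). The balance of higher and lower calls over all genes depended on the scaling. With total counts alone it was 2073 higher and 1235 lower in G34R and 2794 higher and 1621 lower in set2Δ, and with upper quartile scaling 2032 higher and 1165 lower in G34V, against 1771 and 1753, 2276 and 2351, and 1657 and 1649 as first given. The 3 comparisons share the WT libraries, so the shared direction of 4 genes is not independent between mutants. The share of all tested genes higher in all 3 mutants was not computed. Whether 4 of 10 is more than that share is therefore not known.

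**Figure D1:**
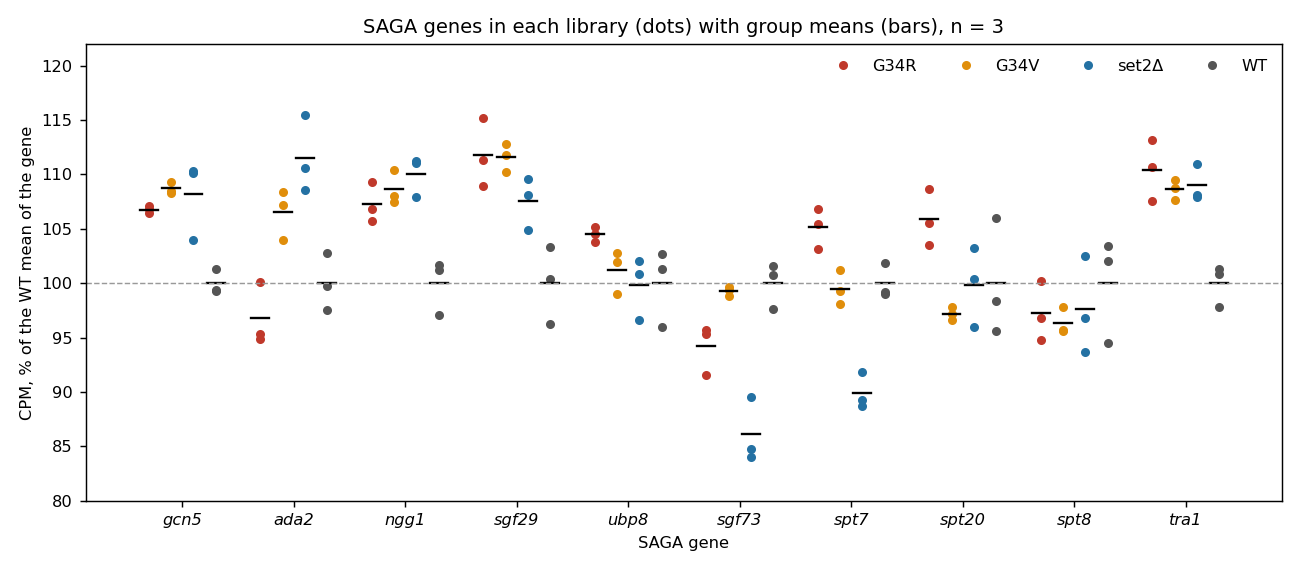
CPM of each of the 10 SAGA genes in every library (dots), as a percentage of the WT mean of that gene, with group means as bars and the groups in the order G34R, G34V, set2Δ and WT. The mutant dots of gcn5, ngg1, sgf29 and tra1 lie above the WT dots, those of sgf73 lie below WT in G34R and set2Δ, and those of spt7 lie above WT in G34R and below it in set2Δ.

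In the acetyltransferase module gcn5, ngg1 and sgf29 were called higher in each mutant. The gcn5 transcript had 97.7, 98.0 and 98.3 CPM in G34R, 100.4, 99.4 and 99.6 CPM in G34V, and 95.5, 101 and 101 CPM in set2Δ, against 91.2, 91.2 and 93.0 CPM in WT. All 9 mutant libraries lay above all 3 WT libraries, and the lowest of them was set2Δ replicate 1. It was 0.095 higher on the log2 scale in G34R (SE 0.023, adjusted p = 0.0032), 0.12 higher in G34V (SE 0.024, adjusted p = 0.00064) and 0.11 higher in set2Δ (SE 0.024, adjusted p = 0.00048), with edgeR. For ngg1, whose product bridges Gcn5 and Ada2 to the complex, the values were 94.8, 98.1 and 95.9 CPM in G34R, 99.0, 96.9 and 96.4 CPM in G34V, and 99.8, 99.7 and 96.8 CPM in set2Δ, against 90.8, 91.2 and 87.1 CPM in WT. No mutant library overlapped WT, and ngg1 was higher by 0.10, 0.12 and 0.14 on the log2 scale (SE 0.024 in each). The transcript of sgf29, which encodes a reader of methylated H3K4, had 52.2, 54.0 and 51.1 CPM in G34R, 52.9, 51.6 and 52.4 CPM in G34V, and 51.3, 49.2 and 50.7 CPM in set2Δ, against 47.0, 48.4 and 45.1 CPM in WT. It had the largest rise of the 10 genes in both H3 mutants, 0.16 in G34R (SE 0.030) and 0.16 in G34V (SE 0.031), and rose by 0.11 in set2Δ (SE 0.030). None of these 9 calls for gcn5, ngg1 and sgf29 was lost under any scaling, filter, tool, threshold or left-out library that was tried.

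The other member of the module, ada2, whose product stimulates Gcn5 on nucleosomes, differed between mutants. It had 46.1, 46.3 and 48.6 CPM in G34R, 50.5, 52.6 and 52.1 CPM in G34V, and 56.1, 53.7 and 52.7 CPM in set2Δ, against 48.4, 47.4 and 49.9 CPM in WT. The G34V and set2Δ libraries lay above all WT libraries, and the G34R libraries overlapped WT. The rise in set2Δ was 0.16 (SE 0.031, adjusted p = 0.00039) and that in G34V 0.089 (SE 0.032, adjusted p = 0.028), and the value in G34R was −0.047 (SE 0.031, adjusted p = 0.22), with edgeR. The G34V call did not hold without WT replicate 1 or 2 (adjusted p = 0.059 and 0.11), without G34V replicate 2 or 3 (0.11 and 0.061) and with total counts as the only scaling (0.057). In the direct comparison ada2 was lower in G34R than in G34V (−0.14, SE 0.032, edgeR adjusted p = 0.0025) and lower in G34R than in set2Δ (−0.20, SE 0.031, edgeR adjusted p = 3.5e-05), without overlap of libraries. The G34V and set2Δ libraries did not overlap either, but that difference was not called (−0.066, 95% interval −0.13 to 0.0024, edgeR adjusted p = 0.086). It was called without set2Δ replicate 3 (−0.086, adjusted p = 0.049), with upper quartile scaling (−0.079, adjusted p = 0.047), with total counts alone (−0.13, adjusted p = 0.0064) and with protein-coding genes alone (−0.079, adjusted p = 0.048).

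In the deubiquitinase module the gene of the anchor, sgf73, was called lower in G34R and set2Δ, and that of the catalytic subunit, ubp8, was called in no mutant. The ubp8 transcript had 53.3, 52.9 and 52.6 CPM in G34R, 50.1, 52.0 and 51.6 CPM in G34V, and 51.1, 48.9 and 51.7 CPM in set2Δ, against 52.0, 51.3 and 48.6 CPM in WT. It was not called in any mutant against WT (adjusted p = 0.080, 0.66 and 0.99 in edgeR's test). The G34R libraries did lie above all WT libraries, at 0.064 (SE 0.029), and were called higher with upper quartile scaling (0.078, adjusted p = 0.044), with total counts alone (0.095, adjusted p = 0.019), with protein-coding genes alone (0.094, adjusted p = 0.016) and without WT replicate 1 (0.085, adjusted p = 0.043). The sgf73 transcript had 50.3, 48.3 and 50.5 CPM in G34R, 52.5, 52.2 and 52.6 CPM in G34V, and 44.7, 47.3 and 44.4 CPM in set2Δ, against 51.6, 53.2 and 53.6 CPM in WT. The set2Δ libraries lay lowest, the G34R libraries between them and WT, and the G34V libraries within the WT range. In set2Δ sgf73 fell by 0.22 (SE 0.029, edgeR adjusted p = 6.7e-06), the largest change against WT among the 10 genes. In G34R it was called lower at −0.087 (SE 0.028, edgeR adjusted p = 0.018). That call was lost with upper quartile scaling (−0.072, adjusted p = 0.055), total counts alone (−0.055, adjusted p = 0.21) or protein-coding genes alone (−0.057, adjusted p = 0.12), and without WT replicate 2 or 3 (adjusted p = 0.054 and 0.065) or G34R replicate 2 (0.10). In G34V the value was −0.011 (95% interval −0.072 to 0.051, edgeR adjusted p = 0.78).

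Of the core genes, spt7 moved in opposite directions in G34R and set2Δ. The product of spt7 is a bromodomain protein around which the core assembles. Its transcript had 143, 148 and 146 CPM in G34R, 140.0, 136 and 137 CPM in G34V, and 123, 127 and 123 CPM in set2Δ, against 137, 141 and 137 CPM in WT. Every G34R library lay above WT, every set2Δ library lay below it, and the G34V libraries overlapped WT. The log2 fold change was 0.073 in G34R (SE 0.023, adjusted p = 0.013), −0.0066 in G34V (SE 0.023, adjusted p = 0.83) and −0.15 in set2Δ (SE 0.023, adjusted p = 2.1e-05), with edgeR. The G34R call was lost without G34R replicate 2 (0.061, adjusted p = 0.069). The transcript of spt20, which encodes a subunit needed for the integrity of the complex, had 53.8, 54.8 and 56.4 CPM in G34R, 50.8, 50.2 and 50.5 CPM in G34V, and 53.6, 52.1 and 49.8 CPM in set2Δ, against 49.6, 51.1 and 55.0 CPM in WT. WT varied most for this gene, with a coefficient of variation of 5.37%, and WT replicate 3 reached into the G34R range. The spt20 value in G34R was 0.082 (SE 0.036, edgeR adjusted p = 0.065). It was called higher with upper quartile scaling (adjusted p = 0.033), total counts alone (0.032) or protein-coding genes alone (0.021), and without WT replicate 3 (0.0049) or G34R replicate 1 (0.048).

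The transcript of spt8, the subunit that contacts the TATA-binding protein, was the lowest of the 10 and was not called in any comparison. It had 36.6, 37.4 and 38.7 CPM in G34R, 36.9, 36.9 and 37.7 CPM in G34V, and 39.6, 36.2 and 37.4 CPM in set2Δ, against 39.9, 39.4 and 36.5 CPM in WT. The groups overlapped throughout. The log2 fold changes against WT were −0.037, −0.054 and −0.034 in G34R, G34V and set2Δ, and the 95% intervals were −0.12 to 0.043, −0.14 to 0.029 and −0.12 to 0.048. The transcript of tra1 had 468, 493 and 482 CPM in G34R, 477, 474 and 469 CPM in G34V, and 469.7, 471 and 483 CPM in set2Δ, against 441, 439 and 426 CPM in WT. All mutant libraries lay above WT, the lowest of them at 468 CPM and the highest WT library at 441 CPM, and tra1 rose by 0.14 in G34R (SE 0.027, adjusted p = 0.00041), 0.12 in G34V (SE 0.027, adjusted p = 0.0020) and 0.12 in set2Δ (SE 0.027, adjusted p = 0.00075), with edgeR. These 3 calls held under every alternative and with each library left out.

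**Figure D2:**
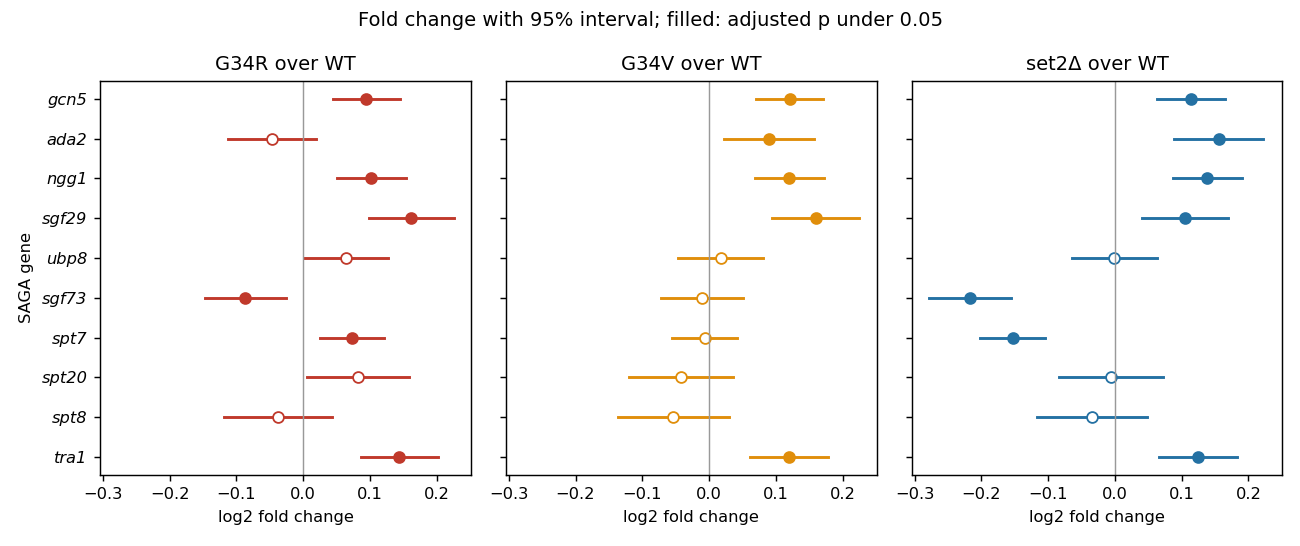
Log2 fold change of each SAGA gene in G34R, G34V and set2Δ over WT, with 95% intervals that are not adjusted for the number of genes, and filled dots for an adjusted p under 0.05. The dots of gcn5, ngg1, sgf29 and tra1 are filled and right of 0 in all 3 panels, and sgf73 in set2Δ lies farthest left, at −0.22.

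The mutants were also set against each other, with the share over all tested genes beside each count of SAGA genes. Between G34R and G34V, spt20 and spt7 were higher and ada2 and sgf73 lower, 4 of 10, where 50.5% of all tested genes were called. Libraries of 6 SAGA genes did not overlap (60.7% of all tested genes). With total counts alone the split over all tested genes was 1997 higher and 1162 lower, against 1667 higher and 1670 lower as first given. The spt20 difference was 0.12 (SE 0.037, edgeR adjusted p = 0.011) and that of spt7 0.080 (SE 0.023, edgeR adjusted p = 0.0093), and the spt7 call was lost without G34R replicate 2 (adjusted p = 0.050). The sgf73 difference of −0.076 (SE 0.029, edgeR adjusted p = 0.040) was lost without WT replicate 2 (adjusted p = 0.050), without G34R replicate 2 (0.18), without G34V replicate 1, 2 or 3 (0.083, 0.074 and 0.073), with total counts alone (0.33) and with protein-coding genes alone (0.065).

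Between G34R and set2Δ, spt7, sgf73 and spt20 were higher and ada2 lower, 4 of 10, where 69.4% of all tested genes were called. Libraries of 5 SAGA genes did not overlap (72.0% of all tested genes). The spt7 difference of 0.23 (SE 0.023, edgeR adjusted p = 3.2e-07) was the largest between any 2 groups among the 10 genes. The sgf73 difference was 0.13 (SE 0.029, edgeR adjusted p = 0.00093). The spt20 difference of 0.088 (SE 0.036, edgeR adjusted p = 0.043) was close to the threshold. It was lost with upper quartile scaling, total counts alone, no filter, protein-coding genes alone and the counts of set2Δ replicate 3 halved (adjusted p = 0.051 to 0.26), and without WT replicate 2, G34R replicate 2 or 3, G34V replicate 2 or 3, or set2Δ replicate 2 or 3 (adjusted p = 0.051 to 0.21). Between G34V and set2Δ, sgf73 (0.21, SE 0.030, edgeR adjusted p = 2.0e-05) and spt7 (0.15, SE 0.023, edgeR adjusted p = 4.8e-05) were higher and 0 of 10 were lower, where 62.5% of all tested genes were called. Libraries of 4 SAGA genes did not overlap (64.9% of all tested genes). With total counts alone the split over all tested genes was 1229 higher and 2855 lower, against 1955 higher and 2168 lower as first given. At an unadjusted p under 0.05, and by DESeq2 or limma, the count of lower genes was also 0. For gcn5 the 3 differences between mutants were not called, although its G34R libraries lay entirely below those of G34V. The 95% interval was −0.076 to 0.024 for G34R over G34V, −0.070 to 0.031 for G34R over set2Δ and −0.044 to 0.057 for G34V over set2Δ. For tra1 the intervals were −0.034 to 0.082, −0.039 to 0.077 and −0.063 to 0.053, and the last of these differences was called lower with total counts alone (−0.068, adjusted p = 0.039). The ngg1 transcript was likewise called lower in G34R than in set2Δ with upper quartile scaling (−0.065, adjusted p = 0.024) and lower in G34V than in set2Δ with total counts alone (−0.082, adjusted p = 0.035), and was not called otherwise. The ubp8 transcript was called higher in G34R than in set2Δ in a fit of these groups alone (0.070, adjusted p = 0.044) and without WT replicate 3 or set2Δ replicate 3 (adjusted p = 0.041 and 0.045).

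Summed over the 10 genes, SAGA transcripts stood at 1115 ± 17.6 CPM in G34R, 1103 ± 5.70 CPM in G34V and 1087 ± 3.04 CPM in set2Δ, against 1045 ± 11.1 CPM in WT (SD, n = 3 each). The lowest mutant library held 1085 CPM and the highest WT library 1053 CPM. Without tra1, by far the longest gene, the sums were 628 to 638 CPM in G34R, 628 to 633 CPM in G34V and 607 to 615 CPM in set2Δ, against 606 to 614 CPM in WT. The set2Δ and WT ranges of that sum overlapped, and those of both H3 mutants lay above WT. In RNA from whole cultures, a change per cell in a few cells and a smaller change in all of them cannot be told apart.

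Per kilobase of coding sequence, the 10 transcripts spanned a 2.75-fold range in WT. Coding lengths came from the RefSeq annotation of build ASM294v3, and reads in untranslated regions were counted as well, so genes with long untranslated regions stand too high on this scale. The level of gcn5 was the highest, at 71.8, 73.1 and 72.7 CPM per kb in G34R, G34V and set2Δ, against 67.2 CPM per kb in WT, which lay at percentile 51.4 of the 5060 coding genes tested. The order in WT went on with sgf29 (63.8 CPM per kb), ngg1 (54.2), sgf73 (51.0), spt7 (46.4), tra1 (39.6), ubp8 (37.5), ada2 (37.0), spt20 (36.5) and spt8 (24.4). Libraries of ubp8, ada2 and spt20 overlapped in WT and their order cannot be read, whereas every other pair of neighbours in that order was separated in all 3 WT libraries. All but gcn5 lay under the WT median of 65.3 CPM per kb over coding genes, and spt8 lay at percentile 14.0. The order shifted a little in the mutants. In G34R the mean of spt7 (48.8 CPM per kb) stood above that of sgf73 (48.0), with overlapping libraries, and those of gcn5 and sgf29 overlapped as well. In set2Δ tra1 (43.2) stood above spt7 (41.8) with no overlap. With the annotated span of the gene in place of the coding length, ngg1 stood first in WT (49.7 CPM per kb) and gcn5 second (44.2), and spt8 remained last (16.7). On that scale tra1 (39.3) moved from position 6 to 3 in WT and sgf29 (35.8) from position 2 to 6. The order between the ends thus depended on the length used.

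**Figure D3:**
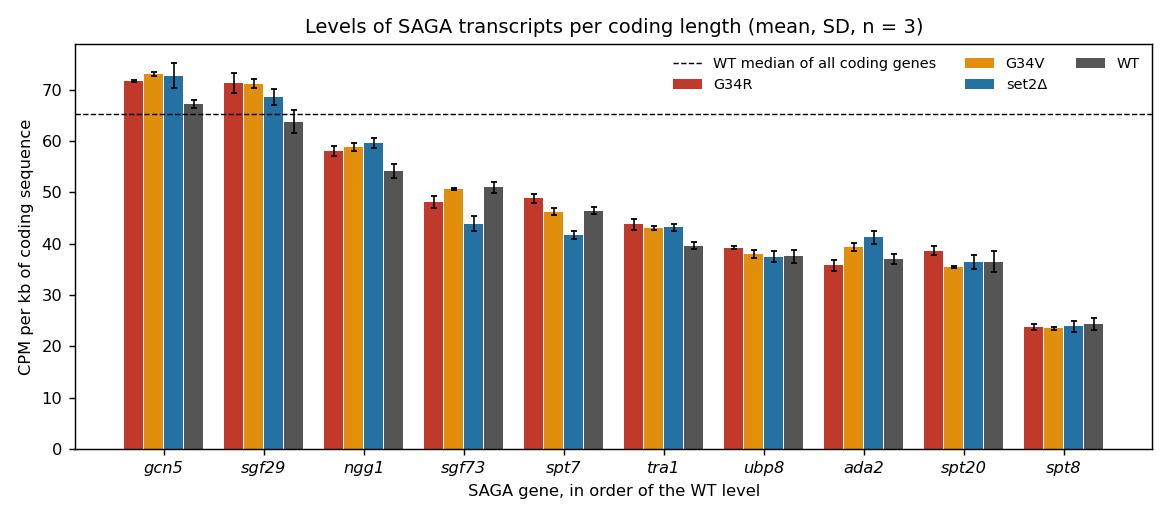
Mean CPM per kilobase of coding sequence for the 10 SAGA genes in G34R, G34V, set2Δ and WT (bars, with SD over 3 libraries), ordered by the WT level. The dashed line marks the WT median of 65.3 CPM per kb over 5060 coding genes, which only the gcn5 bar of WT exceeds among the WT bars.

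In set2Δ the largest changes at the 10 genes were on the other strand. The files count an antisense RNA for 3 of the 10 genes, ngg1, spt20 and tra1, and all 3 antisense RNAs were higher in set2Δ than in WT, where 34.5% of all tested genes and 77.6% of the 617 tested antisense RNAs of this kind were higher. Loss of Set2 is known in yeasts for transcription that starts within or antisense to genes. The antisense RNA of ngg1 had 15.4, 15.7 and 16.1 CPM in G34R, 19.2, 19.4 and 20.4 CPM in G34V, and 41.5, 44.1 and 43.5 CPM in set2Δ, against 14.6, 15.5 and 14.6 CPM in WT. The set2Δ libraries lay far above all others, the G34V libraries above WT, and the G34R libraries overlapped WT. In set2Δ it rose 2.89-fold (log2 fold change 1.53, SE 0.038, edgeR adjusted p = 1.3e-14), more than 94.2% of the antisense RNAs. In G34V it rose by 0.40 (SE 0.039, edgeR adjusted p = 9.6e-07). In G34R the value was 0.083 (SE 0.038, edgeR adjusted p = 0.080), and it was called with total counts alone (0.11, adjusted p = 0.039) and without WT replicate 2 (0.11, adjusted p = 0.031).

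The antisense RNA of tra1 had 3.99, 3.86 and 4.30 CPM in G34R, 5.36, 6.23 and 6.32 CPM in G34V, and 9.52, 9.27 and 9.74 CPM in set2Δ, against 3.93, 3.77 and 4.07 CPM in WT. It rose by 1.28 in set2Δ (SE 0.064, edgeR adjusted p = 6.9e-11) and by 0.59 in G34V (SE 0.068, edgeR adjusted p = 5.0e-06), and was at 0.047 in G34R (SE 0.067, edgeR adjusted p = 0.58). The G34R libraries overlapped WT, and the G34V libraries lay between WT and set2Δ. The antisense RNA of spt20 had 4.31, 4.38 and 4.43 CPM in G34R, 5.19, 5.70 and 5.41 CPM in G34V, and 7.37, 7.22 and 7.55 CPM in set2Δ, against 5.11, 4.68 and 4.74 CPM in WT. It rose by 0.61 in set2Δ (SE 0.052, edgeR adjusted p = 4.1e-08), more than 55.3% of the 617 antisense RNAs, whose median in set2Δ was 0.54. In G34V it was called higher (0.16, SE 0.055, edgeR adjusted p = 0.022) and in G34R lower (−0.14, SE 0.053, edgeR adjusted p = 0.032). The G34V call did not hold without WT replicate 2 or 3 or G34V replicate 2 (adjusted p = 0.077, 0.070 and 0.11). The G34R call was lost with upper quartile scaling (adjusted p = 0.054), with total counts alone (0.098) and without WT replicate 1 or G34R replicate 1, 2 or 3 (0.15, 0.077, 0.076 and 0.058).

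Of the 617 antisense RNAs 72.0% were higher and 4.70% lower in G34R than in WT (median 0.27), and 61.4% were higher and 6.65% lower in G34V (median 0.23), beside 0 higher and 1 lower of these 3 in G34R and 3 higher in G34V. The count of higher ones in G34R was 1 with total counts alone. The values of the antisense RNAs of ngg1, tra1 and spt20 in G34R exceeded those of 21.1%, 17.3% and 5.35% of the 617. In the direct comparisons all 3 antisense RNAs were lower in G34R than in G34V (−0.31 at ngg1, −0.31 at spt20 and −0.54 at tra1), where 50.5% of all tested genes were called in either direction and 24.5% of the 617 antisense RNAs were lower. All 3 were also lower in G34V than in set2Δ (−1.14, −0.45 and −0.69), where 62.5% of all tested genes were called and 62.9% of the 617 were lower. As a percentage of the sense transcript in CPM, antisense RNA of ngg1 stood at 16.4% ± 0.395, 20.2% ± 0.882 and 43.6% ± 1.81 in G34R, G34V and set2Δ, against 16.6% ± 0.502 in WT (SD, n = 3 each). At spt20 the percentage was 7.95%, 10.8% and 14.3% in G34R, G34V and set2Δ, against 9.35% in WT, and at tra1 0.843%, 1.26% and 2.00%, against 0.901% in WT. The median over 550 tested pairs of antisense and sense RNA was 13.5% in WT, with a 5th percentile of 0.510%. The sense transcripts of ngg1 and tra1 rose in set2Δ, as did their antisense RNAs, and that of spt20 was not called (−0.0056, edgeR adjusted p = 0.90). In G34V the sense and antisense RNAs of ngg1 and tra1 were also called higher. In G34R their sense transcripts were called higher (0.10 and 0.14), but their antisense RNAs were not called (0.083 and 0.047). The share of reads outside annotated genes was 2.42%, 2.38% and 3.26% in G34R, G34V and set2Δ, against 2.02% in WT, and its part in these values was not tested.

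**Figure D4:**
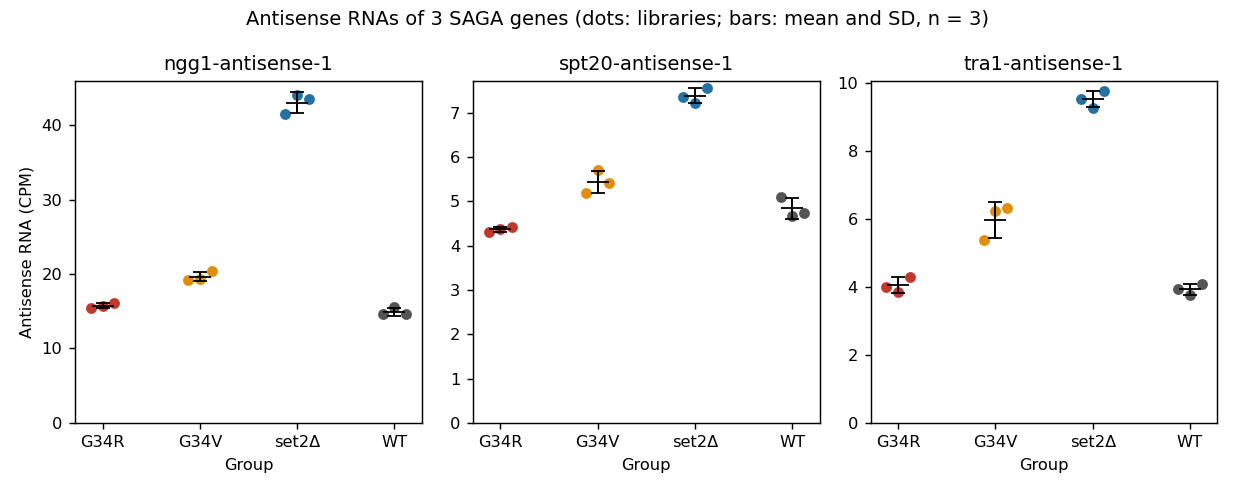
CPM of the antisense RNAs of ngg1, spt20 and tra1 in each library of G34R, G34V, set2Δ and WT (dots), with mean and SD (bars, n = 3). The set2Δ dots are the highest in each panel, at 41.5 to 44.1 CPM for ngg1. The G34R dots overlap those of WT for ngg1 and tra1 and lie below them for spt20.

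Genes around SAGA were examined in lists of known partners. The counts below stand beside shares over all tested genes of 26.8% higher and 26.6% lower for G34R. These shares were 25.1% higher and 25.0% lower for G34V, and 34.5% higher and 35.6% lower for set2Δ. Of 9 further SAGA subunit genes 1 rose and 3 fell in G34R, 1 rose and 2 fell in G34V, and 1 rose and 1 fell in set2Δ, with medians of −0.027, 0.0095 and −0.00015. The gene of the TATA-binding partner Spt3 fell in G34R (spt3, −0.25, SE 0.028) and in G34V (−0.11, SE 0.029), and taf10, shared with the general factor TFIID, fell in both (−0.13 and −0.13, SE 0.021 in each). The shared subunit genes taf6 and taf9 were the ones that rose, taf6 in G34R (0.10, SE 0.024) and taf9 in G34V (0.067, SE 0.024) and set2Δ (0.097, SE 0.024). In set2Δ taf12 was called lower (−0.057, edgeR adjusted p = 0.043), and that call ended under each other scaling, filter and tool (adjusted p = 0.052 to 0.86), with a sign change for total counts alone. It also ended with any 1 library left out other than G34R replicate 3 or set2Δ replicate 1 (adjusted p = 0.051 to 0.18). The taf9 call in G34V was lost with total counts alone (adjusted p = 0.056) and without WT replicate 2 or 3 or G34V replicate 3 (0.059, 0.081 and 0.092). Of the 10 genes for TFIID, 2 rose and 1 fell in G34R, 2 rose and 1 fell in G34V, and 4 rose and 3 fell in set2Δ. The tbp1 gene of the TATA-binding protein rose in G34V (0.23, SE 0.030), taf5 in G34R (0.12, SE 0.024) and set2Δ (0.23, SE 0.024), and ptr6, the gene of a further TFIID subunit, in G34V (0.097, SE 0.024) and set2Δ (0.15, SE 0.023). The gene taf13 fell in G34V (−0.19, SE 0.030) and set2Δ (−0.27, SE 0.030), and taf4 fell in set2Δ (−0.27, SE 0.063). In G34R taf2 was called higher (0.060, SE 0.022) and taf4 lower (−0.17, SE 0.062). The taf2 call was lost without WT replicate 1 or 3 or any 1 G34R library (adjusted p = 0.060 to 0.086), and that of taf4 without WT replicate 1 or 2 or any 1 G34R library (0.052 to 0.13), with total counts alone (0.10) and with protein-coding genes alone (0.072).

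Of 12 genes for NuA4, the acetyltransferase complex of H4 and H2A, 5 rose and 2 fell in G34R (26.8% and 26.6% of all tested genes), 5 rose and 1 fell in G34V (25.1% and 25.0%), and 8 rose and 2 fell in set2Δ (34.5% and 35.6%), with medians of 0.033, 0.051 and 0.13. The gene of its Tra1 relative, tra2, had 734 ± 8.07, 795 ± 5.53 and 883 ± 15.1 CPM in G34R, G34V and set2Δ, against 709 ± 5.43 CPM in WT (SD, n = 3 each). It rose by 0.32 in set2Δ (SE 0.026, edgeR adjusted p = 3.0e-08) and by 0.17 in G34V (SE 0.026, edgeR adjusted p = 0.00010), and was not called in G34R (0.050, edgeR adjusted p = 0.12). The chromodomain gene alp13 rose in each mutant (0.11, 0.19 and 0.25 in G34R, G34V and set2Δ, SE 0.022 in each) and eaf7 fell in each (−0.11, −0.22 and −0.16, SE 0.031, 0.032 and 0.032), although its G34R call was lost with total counts alone (adjusted p = 0.12), with protein-coding genes alone (0.053) and without WT replicate 2 (0.058). The gene swc4 rose in each mutant (0.17, 0.071 and 0.18 in G34R, G34V and set2Δ, SE 0.022, 0.023 and 0.023). Its calls in G34V and set2Δ were not rechecked singly with other scalings or with libraries left out. The gene alp5 fell in G34R (−0.17, SE 0.023). The set2Δ value of alp5 was −0.057 (edgeR adjusted p = 0.035), with overlapping libraries. That call was lost with upper quartile scaling, no filter, protein-coding genes alone, a fit of the 2 groups alone or the counts of set2Δ replicate 3 halved (adjusted p = 0.054 to 0.61) and without any 1 WT library, G34R replicate 1, G34V replicate 3 or set2Δ replicate 1 or 2 (0.061 to 0.14), and the sign changed with total counts alone. Of 5 acetyltransferase genes outside SAGA, which include mst1 of the NuA4 list, 3 rose and 1 fell in G34R, 1 rose and 0 fell in G34V, and 2 rose and 0 fell in set2Δ. The gene that rose in G34V was mst1, already counted under NuA4. The count of lower genes in G34V and set2Δ was also 0 at an unadjusted p under 0.05 and by DESeq2 or limma. Those that rose were mst1 in each mutant (0.068, 0.077 and 0.15, SE 0.026 in each), mst2 in G34R (0.21, SE 0.024) and set2Δ (0.10, SE 0.025), and rtt109 in G34R (0.16, SE 0.033). The G34V call of mst1 was lost without WT replicate 1 or 2 or G34V replicate 3 (adjusted p = 0.057, 0.094 and 0.074). Its G34R call (edgeR adjusted p = 0.038) was not rechecked singly in this way. The gene that fell in G34R was elp3 (−0.069, edgeR adjusted p = 0.048), a call lost under each other scaling and filter and with DESeq2 (adjusted p = 0.051 to 0.26), and with any 1 library left out other than G34R replicate 1 or set2Δ replicate 1 or 3 (0.053 to 0.16).

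Histone deacetylases remove the acetyl groups that complexes such as SAGA add. Of 6 histone deacetylase genes 0 rose in any mutant, while 3 fell in G34R (26.6% of all tested genes), 1 fell in G34V (25.0%) and 5 fell in set2Δ (35.6%), with medians of −0.059, −0.062 and −0.14. The count of higher genes was also 0 at an unadjusted p under 0.05 and by DESeq2 or limma. Of these hst4 fell in all 3 (−0.19, −0.15 and −0.16 in G34R, G34V and set2Δ, SE 0.023, 0.024 and 0.024), clr3 in G34R (−0.11, SE 0.025) and clr6 in set2Δ (−0.25, SE 0.029). Of 4 genes for the ubiquitination of H2B, a mark that Ubp8 removes, 0 rose and 1 fell in G34R. In G34V 0 rose and 2 fell, and in set2Δ 1 rose and 2 fell. Both counts of 0 were also 0 at an unadjusted p under 0.05 and by DESeq2 or limma. The ligase subunit genes brl1 and brl2 fell in set2Δ by 0.23 on the log2 scale each (SE 0.025 and 0.021) and in G34V (−0.087 and −0.15), where the brl1 call was lost with upper quartile scaling (adjusted p = 0.073). The gene that fell in G34R was also brl1 (−0.13, SE 0.025), so brl1 was called lower in each mutant. The gene of the conjugating enzyme, rhp6, rose in set2Δ by 0.13 (SE 0.037).

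Tra1 is folded with the help of Hsp90 and a cochaperone of Tel2, Tti1 and Tti2, which also serve the kinases of its family. Of 9 such genes 3 rose and 3 fell in G34R, 3 rose and 3 fell in G34V, and 1 rose and 5 fell in set2Δ. The chaperone gene hsp90 rose in each (0.12, 0.21 and 0.44 in G34R, G34V and set2Δ, SE 0.039, 0.039 and 0.040), whereas tel2 (−0.067, −0.11 and −0.28, SE 0.022 in each) and tti1 (−0.14, −0.18 and −0.24, SE 0.036, 0.037 and 0.037) fell in each. The G34R call of hsp90 was lost without WT replicate 2 or G34R replicate 2 or 3 (adjusted p = 0.059, 0.076 and 0.055), that of tel2 with upper quartile scaling, total counts alone or protein-coding genes alone (0.060, 0.31 and 0.17) and without WT replicate 2 or G34R replicate 3 (0.089 and 0.092). The kinase gene tor2 fell in set2Δ (−0.42, SE 0.027). The kinase gene tel1 rose in G34V (0.12, SE 0.022), and rad3 rose in G34R (0.061, SE 0.020), a call lost without G34R replicate 2 (adjusted p = 0.076). The differentiation genes ste11 and mei2, at which Gcn5 and Spt8 are known to act, moved in opposite directions in G34R and set2Δ. The ste11 transcript had 397, 389 and 345 CPM in G34R, 332, 279.7 and 259 CPM in G34V, and 277, 255 and 243 CPM in set2Δ, against 314, 329 and 318 CPM in WT. It was called higher in G34R (0.24, SE 0.089, edgeR adjusted p = 0.047) and lower in set2Δ (−0.31, SE 0.089, edgeR adjusted p = 0.011). The G34R call of ste11 was lost with limma (adjusted p = 0.054), without WT replicate 1, 2 or 3 (0.11, 0.075 and 0.11), without G34R replicate 1 or 2 (0.13 and 0.12), without G34V replicate 2 (0.056) and without set2Δ replicate 2 or 3 (0.061 and 0.052). The mei2 transcript rose by 0.28 in G34R (SE 0.039, edgeR adjusted p = 4.5e-05) and fell by 0.29 on the log2 scale in set2Δ (SE 0.040, edgeR adjusted p = 1.2e-05).

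**Figure D5:**
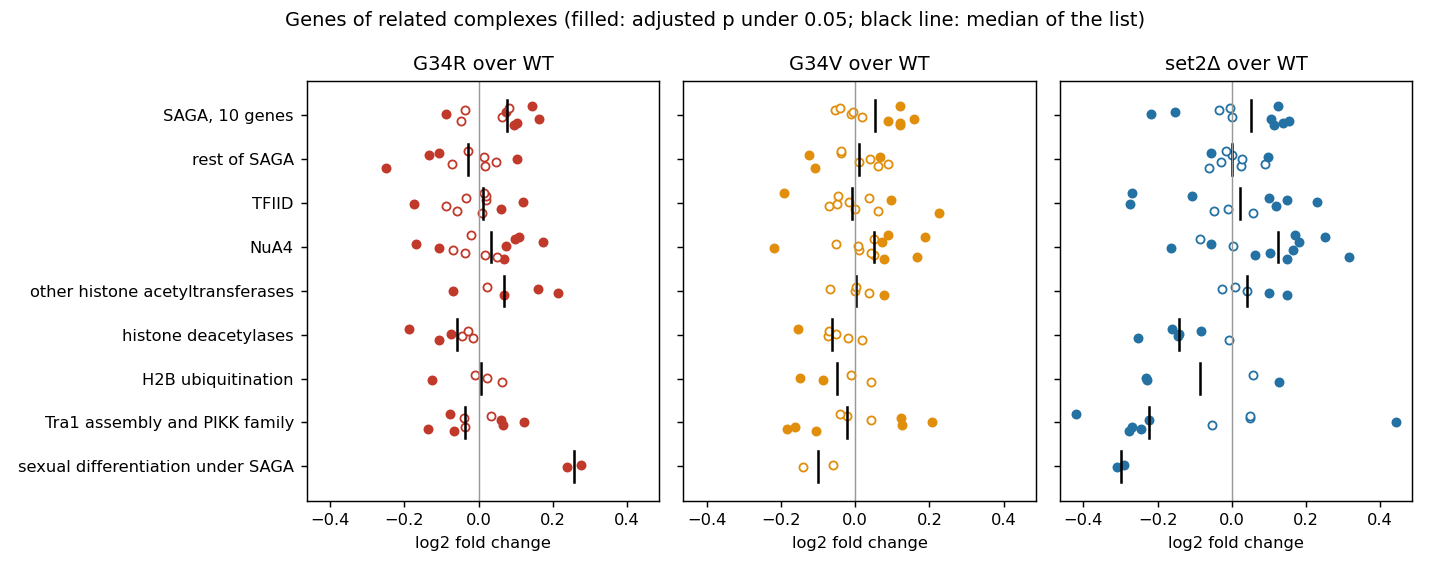
Log2 fold change of each gene in the SAGA set and in 8 lists of related genes, in G34R, G34V and set2Δ over WT, with filled dots for an adjusted p under 0.05 and a black line at the median of each list. The histone deacetylase medians lie left of 0 in all 3 panels, at −0.059, −0.062 and −0.14, and the NuA4 median in set2Δ lies at 0.13.

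Over the 12 libraries, the genes with a pattern most like that of gcn5 were ubc15, jmj4, dbp10, dcr1 and cdc42, by the root mean square difference of log2 CPM after each gene was centred on its own mean. The difference was 0.0215, 0.0224, 0.0241, 0.0257 and 0.0269, where gcn5 itself varied by 0.053 on this scale. Each of these genes stood 0.071 to 0.12 above WT in the mutants on the log2 scale. Of the other SAGA genes, tra1 was nearest at position 24 of all tested genes (0.035), followed by ngg1 at position 39 (0.038) and sgf29 at position 237 (0.054), and spt7 and sgf73 stood at positions 2511 and 3075. With group means in place of libraries, 1 of these 5 genes (dbp10) was among the nearest 5, and ngg1 was the fifth.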

How the data were processed

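RNA-seq read counts of 12 libraries (4 groups of 3) were analysed. The authors deposited whole-number read counts per gene for each library. Per the submitters' processing notes, CASAVA 1.7, cutadapt, STAR, SAMtools and HTSeq were used with build ASM294v2, with other versions not given in the sources. The labels' protocols describe stranded libraries. Of 16 noncoding RNAs wholly within an opposite-strand coding gene in the later build ASM294v3, 13 exceeded 3 counts in all libraries. Strand-blind counting would tend not to give this, but introns, the counting mode and differences between builds were not checked. The 5 summary lines stayed out of library sizes and tests, and as group means reads outside genes made up 2.02% to 3.26%, ambiguous reads 2.09% to 2.15%, unaligned reads 6.59% to 7.80% and reads aligned more than once 11.3% to 13.4%.

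Genes were kept with filterByExpr (6602 tested, 411 not) and tested in edgeR 4.0.16 with TMM scaling and the robust quasi-likelihood F-test, in 1 fit of 4 group means with 8 residual degrees of freedom and 6 contrasts. Benjamini-Hochberg adjustment ran over the 6602 genes, with calls at 0.05. CPM, fold changes and their standard errors were computed here from the deposited counts. SDs and intervals cover the spread between libraries and counting error only, and 3 counts equal 0.0134 to 0.0460 CPM. The method was tested on simulated data.

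The SAGA genes and the lists were chosen with earlier results of these data known. Named were all 10 SAGA genes, their antisense RNAs, up to 2 called genes per list, direction and mutant (by smallest adjusted p), the 5 genes nearest to gcn5, and set2 and hht2. Lists were described by counts and medians with no list test. For some named genes of the lists, values in mutants outside this selection are given beside them, and these were not rechecked singly. Names and lengths came from RefSeq for ASM294v3, a later build, whose gene positions were used only to find overlapping genes, and promoter sequences were not used here. Results were recomputed with DESeq2 1.42.0 and limma 3.58.1, other scalings and filters, only protein-coding genes, fits of 2 groups, halved counts of set2Δ replicate 3, a threshold of 0.01, and each library left out. Applying these to the antisense RNAs was chosen after seeing the data. R 4.3.3 and Python 3.11.15 were used.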

Additional observations from a re-analysis of the deposited data

Results flagged for a closer look

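Several named genes were called in opposite directions against WT in 2 mutants, with the difference between these mutants also called. The spt7 transcript was 0.23 higher in G34R than in set2Δ on the log2 scale (0.073 in G34R and −0.15 in set2Δ against WT). The antisense RNA of spt20 was lower in G34R than in G34V (−0.31; −0.14 in G34R and 0.16 in G34V against WT) and lower in G34R than in set2Δ (−0.76; 0.61 in set2Δ against WT), although its calls against WT in both H3 mutants were lost when single libraries were left out. The kinase gene rad3 was 0.28 higher in G34R than in set2Δ (0.061 and −0.22 against WT). The differentiation genes mei2 and ste11 were 0.57 and 0.55 higher in G34R than in set2Δ. The G34R calls of spt7 and rad3 against WT were lost without G34R replicate 2. That of ste11 was lost with limma and when any of several single libraries was left out.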

How the results depend on the processing

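Of the single values of the 10 SAGA genes in 6 comparisons, 693 with a library left out and 630 under other alternatives stayed on their side of the threshold, 21 and 17 lost a call and 6 and 13 gained one. With the antisense RNAs of these genes included, values called on neither side changed sign 59 times, all within 0.061 on the log2 scale. The count of SAGA genes lower in G34R (1) was 0 with upper quartile scaling, total counts alone, protein-coding genes alone and a threshold of 0.01. Between G34R and G34V the count of higher genes (2) was 1 at that threshold, and that of lower genes (2) was 1 with total counts alone, protein-coding genes alone and at that threshold. The count lower in G34R than in set2Δ (1) was 2 with upper quartile scaling, and that lower in G34V than in set2Δ (0) was 1 with upper quartile scaling, 3 with total counts alone and 1 with protein-coding genes alone. All tested genes higher in G34V than in set2Δ (1955) numbered 1229 with total counts alone. Genes of the other lists higher in G34R (15) numbered 7 at the threshold of 0.01, and lower ones (14) numbered 8 with total counts alone, 8 with protein-coding genes alone and 9 at 0.01. Higher ones in G34V (11) numbered 19 with upper quartile scaling, and in set2Δ (16) 25 with total counts alone. Antisense RNAs of SAGA genes higher in G34R (0) numbered 1 with total counts alone, and lower ones (1) numbered 0 with upper quartile scaling, total counts alone and at 0.01. For gcn5, 1 of the 5 nearest genes remained with group means. The set2Δ values of taf12 and alp5 turned to 0.0065 and 0.0050 with total counts alone. With a library left out, the SAGA counts ran from 0 to 1 (lower in G34R), 1 to 2 (higher and lower in G34R than in G34V) and 0 to 1 (lower in G34V than in set2Δ), those of the other lists in G34R from 7 to 15 (higher) and 8 to 14 (lower), and antisense counts in G34R from 0 to 1 in each direction. The threshold of 0.01 calls fewer genes by construction, and for the other changes the cause was not tested. Scaling moved the median of all genes by at most 0.063 on the log2 scale, close to the size of many changes described here. No paired analysis was possible because no label ties a library of 1 group to a library of another.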

Other observations

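Several SAGA genes overlap a neighbour on the other strand in the later annotation, and the neighbours were looked at after their values were seen. The meiotic gene mcp7, which overlaps ubp8, had 30.2, 31.5 and 33.8 CPM in G34R, 30.3, 30.8 and 33.8 CPM in G34V, and 22.9, 23.9 and 22.4 CPM in set2Δ, against 44.5, 46.2 and 46.7 CPM in WT. It was lower in each mutant, with log2 fold changes of −0.52, −0.54 and −0.99 (SE 0.044 to 0.046), while ubp8 was not called. The gene mcs2, which overlaps tra1, was at −0.13, −0.17 and −0.46 in G34R, G34V and set2Δ (SE 0.034 to 0.035), while tra1 rose in each. SPAC1952.06c, which overlaps gcn5, was at −0.12, −0.098 and −0.26, and toa1, which overlaps ngg1, at 0.12, 0.089 and 0.23. The gene gad8, which overlaps ada2, was at 0.038, −0.070 and −0.021, called lower in G34V (adjusted p = 0.043 in edgeR's test), and pus1, which overlaps sgf73, was called in no mutant (−0.060, 0.0092 and −0.012). The noncoding RNA SPNCRNA.1265, on the other strand of sgf73, was at 0.17, 0.12 and −0.18, and the value in G34V was not called (adjusted p = 0.060 in edgeR's test).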
